A study of Mus musculus with 12 samples.

Results

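Kidney RNA was measured in mice that had been through partial liver ischemia or a sham operation on 1 of 2 diets, and the collagen genes are described here across those conditions. A collagen gene was any gene whose symbol reads Col, a number, a and a number, which gave 33 of the 14091 genes in the count table. Of these, 9 encode fibrillar chains, 8 encode basement membrane chains and 16 belong to other types. RefSeq names 44 such mouse genes, and the remaining 11 were not analysed here. The HFD + hIRI and HFD + sham mice ate a high-fat diet (29% fat, 46.2% carbohydrate, 12.6% protein), and the ND + hIRI and ND + sham mice ate a control diet (10% fat, 70% carbohydrate, 20% protein), in both cases for 12 weeks from 10 weeks of age. In the hIRI mice (hepatic ischemia-reperfusion injury) blood flow to part of the liver (the left lateral lobe and the right median lobe) was clamped off for 60 min, and kidneys of all groups were taken 6 h after hIRI or the sham procedure. All were WT male C57BL/6 mice, with 3 kidney libraries in each of the 4 groups.

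Collagens are secreted or membrane-bound matrix proteins whose chains wind around each other into a rod-like helix. Fibrillar collagens such as types I, III and V form the rope-like fibers of connective tissue and of scars, and type VI forms beaded filaments beside them. Type IV collagen instead builds the sheet-like network of basement membranes. In the kidney the Col4a1 and Col4a2 chains assemble together in nearly all basement membranes and in the mesangium, podocytes assemble Col4a3, Col4a4 and Col4a5 into the mature filter membrane of the glomerulus, and Col4a5 with Col4a6 is found in Bowman's capsule and around some tubules. Loss of the Col4a3, Col4a4 or Col4a5 chain is the cause of Alport syndrome in people.

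The 12 libraries held 20874584 to 29451344 assigned reads. Kidney markers were present in each of them, with 403 to 605 CPM (reads of a gene per unit of library size, after TMM scaling) over 8 podocyte genes. Summed over 10 proximal tubule genes, HFD + hIRI kidneys had 11915 to 16056 CPM and HFD + sham kidneys 17276 to 18996 CPM, without overlap. ND + hIRI kidneys had 16835 to 18949 CPM and ND + sham kidneys 18785 to 20271 CPM. On the first principal component of all genes (54.4% of the variance) the HFD + hIRI libraries had scores of 97.4 for replicate 1 and lower scores for the others, while replicate 1 of ND + hIRI, at -26.0, lay among the sham kidneys and apart from the other ND + hIRI libraries at 15.7 and 22.5. The library names carry numbers that fall in a lower and a higher run, and all 3 HFD + hIRI libraries but only 1 of the 3 HFD + sham libraries are in the higher run. In both ND + hIRI and ND + sham, replicate 1 is in the lower run and replicates 2 and 3 are in the higher run. Replicate 1 of ND + hIRI, which lay among the sham kidneys, is thus the only hIRI library of the lower run. Whether the run has a part in its position was not tested. In RNA from whole kidney, fewer cells of a type and less RNA per cell cannot be told apart.

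Basement membrane chains made up most of the collagen RNA in every library. As CPM per kilobase of exon, type IV chains held 64.1% to 67.8% of the summed collagen level in HFD + hIRI kidneys and 58.4% to 59.7% in HFD + sham kidneys. The same share was 60.1% to 72.0% in ND + hIRI kidneys and 54.2% to 63.0% in ND + sham kidneys. Fibrillar chains held 5.74% to 12.8% in HFD + hIRI and 15.0% to 16.7% in HFD + sham kidneys, and 10.3% to 16.0% in ND + hIRI and 13.7% to 20.2% in ND + sham kidneys. These shares are descriptions and were not tested. The summed collagen level itself was 324 to 445 CPM per kilobase in HFD + hIRI, 281 to 307 in HFD + sham, 279 to 391 in ND + hIRI and 204 to 307 in ND + sham kidneys.

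**Figure D1:**
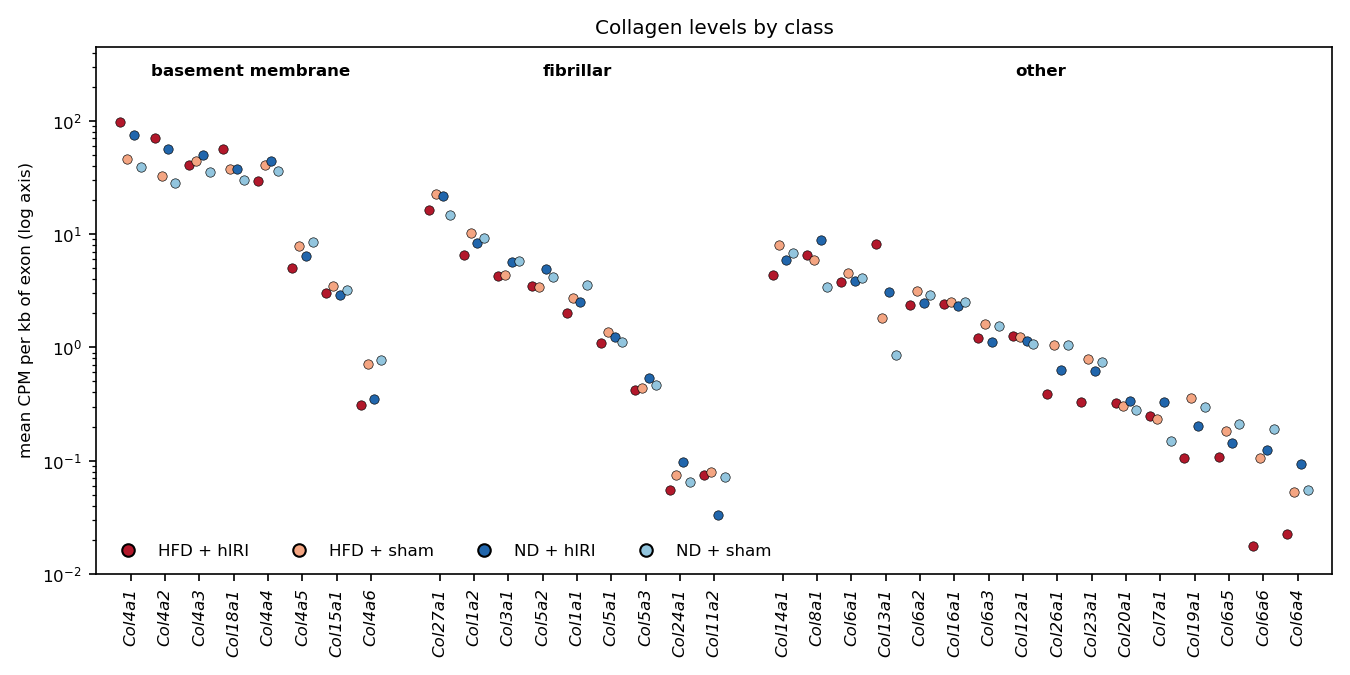
Mean level of each of the 33 collagen genes in each group, as CPM per kilobase of exon on a log axis (n = 3 libraries a group, 1 coloured point per group), ordered by class. The top 5 are basement membrane chains, from Col4a1 with a mean over all libraries of 64.2 down to Col4a4 at 37.6, and the low end reaches Col6a4 at 0.0558.

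Averaged over all 12 libraries, Col4a1 had the highest level at 64.2 CPM per kilobase, followed by Col4a2 (46.8), Col4a3 (42.7), Col18a1 (40.6) and Col4a4 (37.6). Col18a1, whose C-terminal fragment is endostatin, is a proteoglycan core of basement membranes. Col4a5 stood at 6.90, far under its glomerular partners Col4a3 and Col4a4. The highest fibrillar chain was Col27a1, a chain known from cartilage, at 18.9, followed by Col1a2 at 8.63 and Col3a1 at 5.04. Among the other types Col14a1, which binds to the surface of collagen fibrils, had the highest level at 6.30, beside Col8a1 (6.22), a short-chain network collagen, and Col6a1 (4.07). At the low end Col6a4, Col11a2 and Col24a1 averaged 0.0558, 0.0649 and 0.0729 CPM per kilobase, and 27 of the 33 genes had at least 10 reads in every library. The plot of levels by class shows that the order of classes was alike in the 4 groups while single chains moved within it.

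In hIRI kidneys the widespread type IV chains Col4a1 and Col4a2 and the transmembrane Col13a1 were higher than in sham kidneys, while the type IV chains Col4a5 and Col4a6 were lower. With both diets averaged, 10 of the 33 collagen genes passed an adjusted p of 0.05 (edgeR's quasi-likelihood test, Benjamini-Hochberg over all 14091 genes), against 23.7% of all genes. Of the 10, 3 were higher in hIRI kidneys (Col4a1, Col4a2 and Col13a1; 12.9% of all genes were higher) and 7 were lower (Col4a5, Col4a6, Col6a3, Col6a6, Col14a1, Col23a1 and Col26a1; 10.9% of all genes were lower). Among basement membrane chains 2 of 8 rose and 2 fell, among other types 1 of 16 rose and 5 fell, and 0 of the 9 fibrillar chains passed. In either direction 30.3% of the collagen genes passed, near the 23.7% of all genes, so it is a result about single chains and not about collagens as a group. The 7 of 33 that were lower are a larger share than the 10.9% of all genes, a difference that was not tested. The median log2 fold change was -0.10 over the collagen genes and 0.00 over all genes. Scaling to library totals alone moved the all-gene median by -0.11 and its calls to 1114 higher and 2441 lower, against 1814 higher and 1531 lower with TMM, while 3 collagen genes were still higher and 8 were lower. Within the 8 libraries of the higher run of numbers 0 collagen genes and 4 of all genes passed, and the log2 fold changes there were 1.24 for Col4a1, 1.22 for Col4a2, 2.07 for Col13a1, -0.56 for Col4a5, -1.35 for Col4a6 and -0.73 for Col23a1. The 4 libraries of the lower run include no HFD + hIRI kidney, so the comparison could not be made within it.

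Col4a1 and Col4a2 lie head to head on chromosome 8, Col4a1 from 11198423 to 11312826 on the minus strand and Col4a2 from 11312829 to 11449287 on the plus strand (mm10). In RefSeq their start sites are 21 bases apart, so their promoters overlap by 78 bases. The promoters of both are printed from 250 bases before to 50 after the start site (RefSeq, GRCm38.p6, the assembly of mm10), because these 2 chains rose together. Capitals mark every CCAAT and GGGCGG motif, read on both strands, so that the reverse complements ATTGG and CCGCCC also count; no marked stretch overlaps another.
Col4a1 (chr8:11312777-11313076, minus strand): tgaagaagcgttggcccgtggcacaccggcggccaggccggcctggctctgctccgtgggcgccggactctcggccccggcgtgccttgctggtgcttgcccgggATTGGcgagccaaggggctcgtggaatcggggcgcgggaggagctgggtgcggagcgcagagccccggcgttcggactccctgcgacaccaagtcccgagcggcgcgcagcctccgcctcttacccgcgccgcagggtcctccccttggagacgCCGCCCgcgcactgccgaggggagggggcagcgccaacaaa
Col4a2 (chr8:11312555-11312854, plus strand): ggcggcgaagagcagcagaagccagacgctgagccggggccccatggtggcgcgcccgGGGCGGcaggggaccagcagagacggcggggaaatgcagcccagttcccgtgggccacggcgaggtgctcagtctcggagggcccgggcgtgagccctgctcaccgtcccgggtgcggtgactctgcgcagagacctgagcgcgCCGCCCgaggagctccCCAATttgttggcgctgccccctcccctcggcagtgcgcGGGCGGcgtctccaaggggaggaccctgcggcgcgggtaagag
One GGGCGG site, at positions 11312812 to 11312817, lies in the shared bases and so appears in both sequences. It begins 9 bases after the start of Col4a1 and 7 after that of Col4a2. The CCAAT motif begins 145 bases before the start of Col4a1 and another begins 32 bases before that of Col4a2, which also has GGGCGG 192 and 48 bases before its start. CCAAT was found in 37.4% and GGGCGG in 35.7% of all 32851 RefSeq promoters of this length. These matches are a description of letters and not of binding.

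Col4a1 had 925, 518 and 483 CPM in HFD + hIRI kidneys, against 306, 352 and 249 CPM in HFD + sham kidneys. It had 330, 607 and 550 CPM in ND + hIRI kidneys, against 238, 374 and 162 CPM in ND + sham kidneys. On the high-fat diet all hIRI kidneys were above all sham kidneys, whereas on the control diet replicate 1 of hIRI lay within the sham range. With the diets averaged the log2 fold change of hIRI over sham was 1.01 (SE 0.24, adjusted p = 0.0186). Col4a2 had 630, 370 and 357 CPM in HFD + hIRI and 211, 235 and 178 CPM in HFD + sham kidneys. In ND + hIRI kidneys it had 248, 431 and 401 CPM, and in ND + sham kidneys 158, 268 and 125 CPM. Its pattern over the libraries was that of Col4a1, with replicate 1 of HFD + hIRI the highest of the 12. The log2 fold change over both diets was 1.05 (SE 0.22, adjusted p = 0.0129), and the ratio of Col4a1 to Col4a2 per kilobase stayed between 1.26 and 1.47 in all libraries. Both calls stood whichever of the 12 libraries was left out, with log2 fold changes of 0.83 to 1.20 for Col4a1 and 0.88 to 1.24 for Col4a2. With the run of library numbers as a covariate Col4a1 had an adjusted p of 0.0616 at a log2 fold change of 0.93.

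Col4a3 and Col4a4, the partners in the glomerular filter membrane, lie head to head on chromosome 1 (Col4a3 from 82586921 to 82722059, Col4a4 from 82450723 to 82586849) and did not pass in any of the 7 comparisons. Col4a3 averaged 352 ± 88.0 CPM in HFD + hIRI kidneys and 383 ± 19.3 CPM in HFD + sham kidneys, and 429 ± 138 CPM in ND + hIRI and 304 ± 74.0 CPM in ND + sham kidneys (SD, n = 3 each). The ranges of hIRI and sham overlapped on both diets, and the log2 fold change over both diets was 0.19 (95% interval -0.21 to 0.58). Exons of Col4a3 share 563 bases with an antisense transcript, C430014B12Rik, and without a stated strand setting their reads cannot be told apart. Col4a4 had 165, 237 and 290 CPM in HFD + hIRI kidneys, against 292, 311 and 345 CPM in HFD + sham kidneys, so these groups did not overlap. It had 288, 381 and 359 CPM in ND + hIRI and 289, 327 and 238 CPM in ND + sham kidneys. Its log2 fold change was -0.45 on the high-fat diet (95% interval -0.88 to -0.03, adjusted p = 0.105) and 0.27 on the control diet (-0.16 to 0.69, adjusted p = 0.536). The summed markers of podocytes, which assemble these chains in the glomerulus, were 467 to 568 CPM in HFD + hIRI, 540 to 605 in HFD + sham, 436 to 563 in ND + hIRI and 403 to 477 in ND + sham kidneys.

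Col4a5 and Col4a6, the pair that also lies head to head, on the X chromosome, were lower in hIRI kidneys. Their RefSeq start sites are 1343 bases apart and their promoters share no bases; both are shown, with the same motifs in capitals, to set beside the overlapping pair on chromosome 8.
Col4a5 (chrX:141475169-141475468, plus strand): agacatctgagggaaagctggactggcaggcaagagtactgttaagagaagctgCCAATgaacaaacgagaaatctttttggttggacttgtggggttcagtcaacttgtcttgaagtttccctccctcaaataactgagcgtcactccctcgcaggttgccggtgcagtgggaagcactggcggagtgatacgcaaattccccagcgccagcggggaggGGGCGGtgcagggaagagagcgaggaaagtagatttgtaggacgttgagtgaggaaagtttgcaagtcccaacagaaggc
Col4a6 (chrX:141474027-141474326, minus strand): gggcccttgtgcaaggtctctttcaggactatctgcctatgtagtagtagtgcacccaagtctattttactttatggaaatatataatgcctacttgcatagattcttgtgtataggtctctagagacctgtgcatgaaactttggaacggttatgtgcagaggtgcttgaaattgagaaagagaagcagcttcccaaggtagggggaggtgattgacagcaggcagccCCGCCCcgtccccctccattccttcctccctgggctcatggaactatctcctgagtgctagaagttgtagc
Col4a5 has CCAAT 196 and GGGCGG 30 bases before its start, and Col4a6 has GGGCGG 21 bases before its start. The promoters of the X-linked pair held 52.7% and 48.3% G and C, and those of Col4a1 and Col4a2 held 74% and 73.7%. Of the 27 collagen genes with a promoter in the table (29 promoters), 31% of promoters held CCAAT and 65.5% held GGGCGG.

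Col4a5 had 29.4, 34.5 and 33.1 CPM in HFD + hIRI kidneys, against 49.5, 52.6 and 49.5 CPM in HFD + sham kidneys. It had 44.3, 46.0 and 33.9 CPM in ND + hIRI kidneys, against 50.7, 58.8 and 54.9 CPM in ND + sham kidneys. All 6 hIRI kidneys were below all 6 sham kidneys, and the log2 fold change over both diets was -0.52 (SE 0.08, adjusted p = 0.0069). Col4a6 had 2.07, 2.22 and 1.84 CPM in HFD + hIRI and 4.33, 5.40 and 4.52 CPM in HFD + sham kidneys. It had 3.33, 1.82 and 1.87 CPM in ND + hIRI and 4.56, 4.81 and 6.05 CPM in ND + sham kidneys. Again the 6 hIRI kidneys were below the 6 sham kidneys, with replicate 1 of ND + hIRI the nearest to them. Its log2 fold change over both diets was -1.17 (SE 0.18, adjusted p = 0.0060), the lowest p of the collagen genes in this comparison. Both calls stood in each of the 12 fits without 1 library and with the run of library numbers as a covariate. As levels per kilobase, Col4a1 exceeded Col4a5 by 30.8, 14.7 and 14.3 times in HFD + hIRI kidneys and by 6.06, 6.57 and 4.94 times in HFD + sham kidneys, and by 7.31, 12.9 and 15.9 times in ND + hIRI and 4.60, 6.24 and 2.89 times in ND + sham kidneys.

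**Figure D2:**
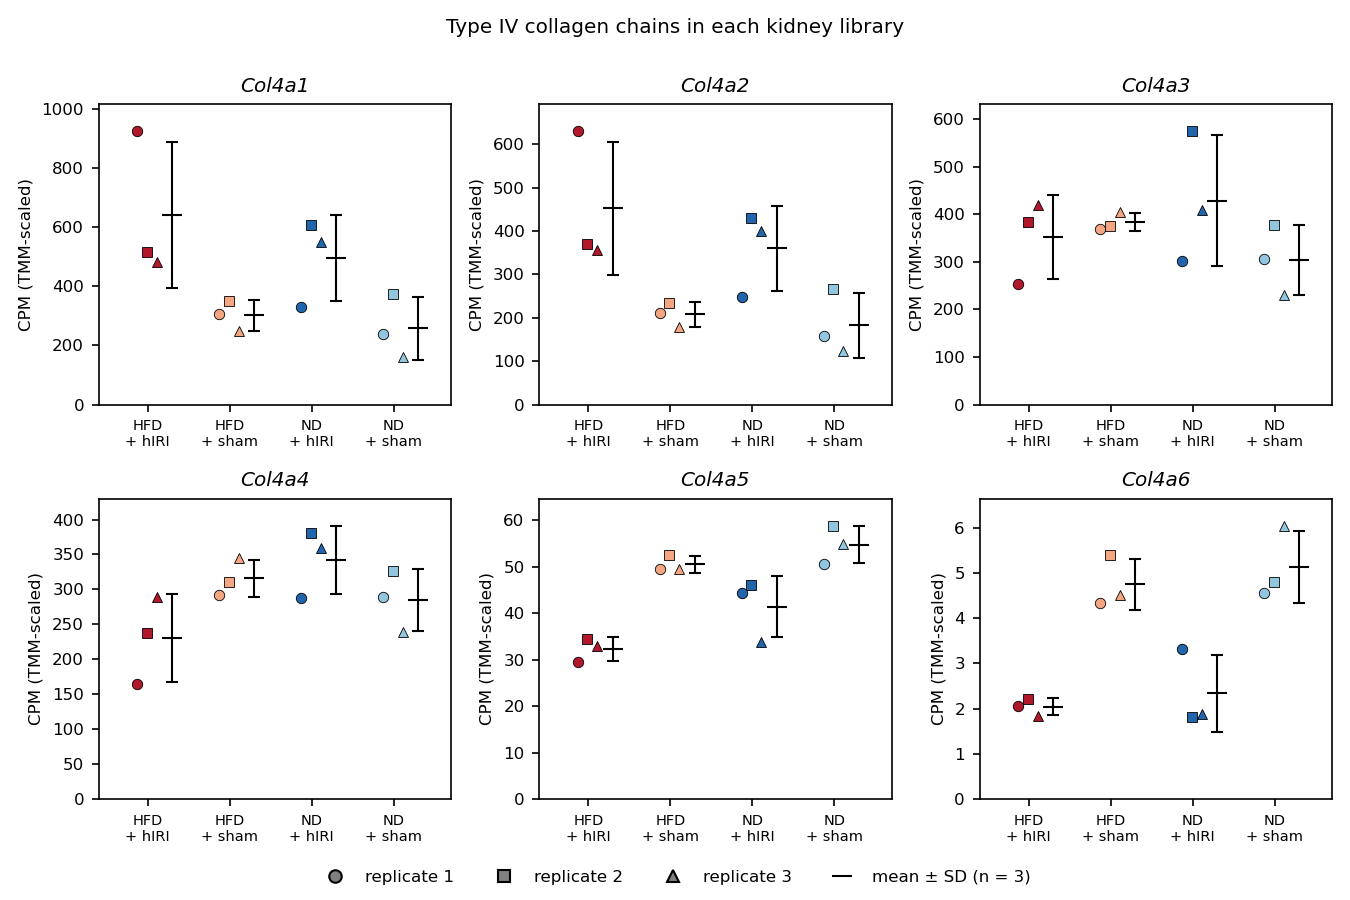
CPM of the 6 type IV collagen genes in each library (points, shape by replicate) with the group mean and SD (bars, n = 3). Col4a1 and Col4a2 run higher in hIRI kidneys, Col4a5 (29.4 to 46.0 CPM in hIRI, 49.5 to 58.8 CPM in sham) and Col4a6 run lower without overlap, and the ranges of Col4a3 overlap on both diets.

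The plots of the 6 chains by library show that replicate 1 of HFD + hIRI is the highest for Col4a1 and Col4a2 but among the lowest for Col4a3, Col4a4 and Col4a5. Of the other basement membrane collagens, Col18a1, named after its values were seen, had 497, 257 and 233 CPM in HFD + hIRI and 211, 241 and 201 CPM in HFD + sham kidneys, with overlap. It had 211, 209 and 235 CPM in ND + hIRI and 173, 199 and 152 CPM in ND + sham kidneys, without overlap. Over both diets the log2 fold change was 0.46 (SE 0.17, adjusted p = 0.0697). Col15a1, the related proteoglycan of basement membranes and also named after its values were seen, ranged from 9.79 to 23.8 CPM over all libraries and had a log2 fold change of -0.17 (95% interval -0.64 to 0.30).

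On the high-fat diet alone, 9 of the 33 collagen genes passed for HFD + hIRI over HFD + sham, beside 19.9% of all genes. Higher in HFD + hIRI were 3 (11.4% of all genes were higher), namely Col13a1 with a log2 fold change of 2.17 (SE 0.45, adjusted p = 0.0179), Col4a2 with 1.12 (SE 0.32, adjusted p = 0.0340) and Col4a1 with 1.09 (SE 0.34, adjusted p = 0.0477). Lower were 6 (8.47% of all genes were lower), namely Col23a1 (-1.26, SE 0.20), Col4a6 (-1.21, SE 0.25), Col4a5 (-0.64, SE 0.12), Col14a1 (-0.91, SE 0.22), Col6a6 (-2.51, SE 0.68) and Col1a2 (-0.66, SE 0.21), with adjusted p-values of 0.0114 to 0.0490. The median log2 fold change was -0.34 over the collagen genes and -0.01 over all genes. Scaling to library totals moved the all-gene median by -0.17 and its calls to 852 higher and 2112 lower, against 1607 higher and 1194 lower with TMM, and gave 2 collagen genes higher and 6 lower. Without HFD + sham replicate 1, 2 or 3 the number of collagen calls was 2, 0 and 1, without HFD + hIRI replicate 1, 2 or 3 it was 4, 4 and 12, and with the run of library numbers as a covariate it was 0 beside 18 of all genes. All-gene shares of the fits without 1 library are not given here, so those counts describe the stability of the calls only. The Col4a1 call stood in 4 and the Col1a2 call in 3 of the 12 fits without 1 library, with log2 fold changes of 0.72 to 1.26 and of -0.82 to -0.53. Of 13 other settings the Col4a1 call stood in 4, and it ended among others with upper quartile scaling (adjusted p = 0.0562), library totals alone (0.0603), the count minimum of 10 (0.0510), limma voom (0.0523), the replicate block (0.0560) and the compared libraries alone (0.0586).

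On the control diet, 0 of the 33 collagen genes and 0% of all genes passed for ND + hIRI over ND + sham. At an unadjusted p under 0.05 there were 8 collagen genes, 5 higher and 3 lower, beside 2030 of the 14091 genes. DESeq2 called 4 collagen genes (3.15% of all genes), edgeR's likelihood ratio test 4 (2.41%) and limma voom 0 (0%). Log2 fold changes were 1.83 for Col13a1 (adjusted p = 0.164), 0.97 for Col4a2 (0.225), 0.94 for Col4a1 (0.262), -1.12 for Col4a6 (0.126) and -0.40 for Col4a5 (0.195). When replicate 1 of both hIRI groups was left out, which was chosen after the data were seen, 10 collagen genes passed on the control diet beside 16.5% of all genes. Then Col4a1 (1.16), Col4a2 (1.18), Col4a3 (0.69), Col7a1 (1.32, a gene named after its values were seen), Col8a1 (1.63) and Col13a1 (1.91) were higher and Col4a5 (-0.46), Col4a6 (-1.47), Col6a3 (-0.65) and Col26a1 (-1.55) were lower. In the same fit the high-fat diet had 5 calls, 1 higher and 4 lower, and the average over diets had 10, of which 8 were among those of the full set. All-gene shares for these last counts are not given here, so they are not a result about collagens as a group.

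**Figure D3:**
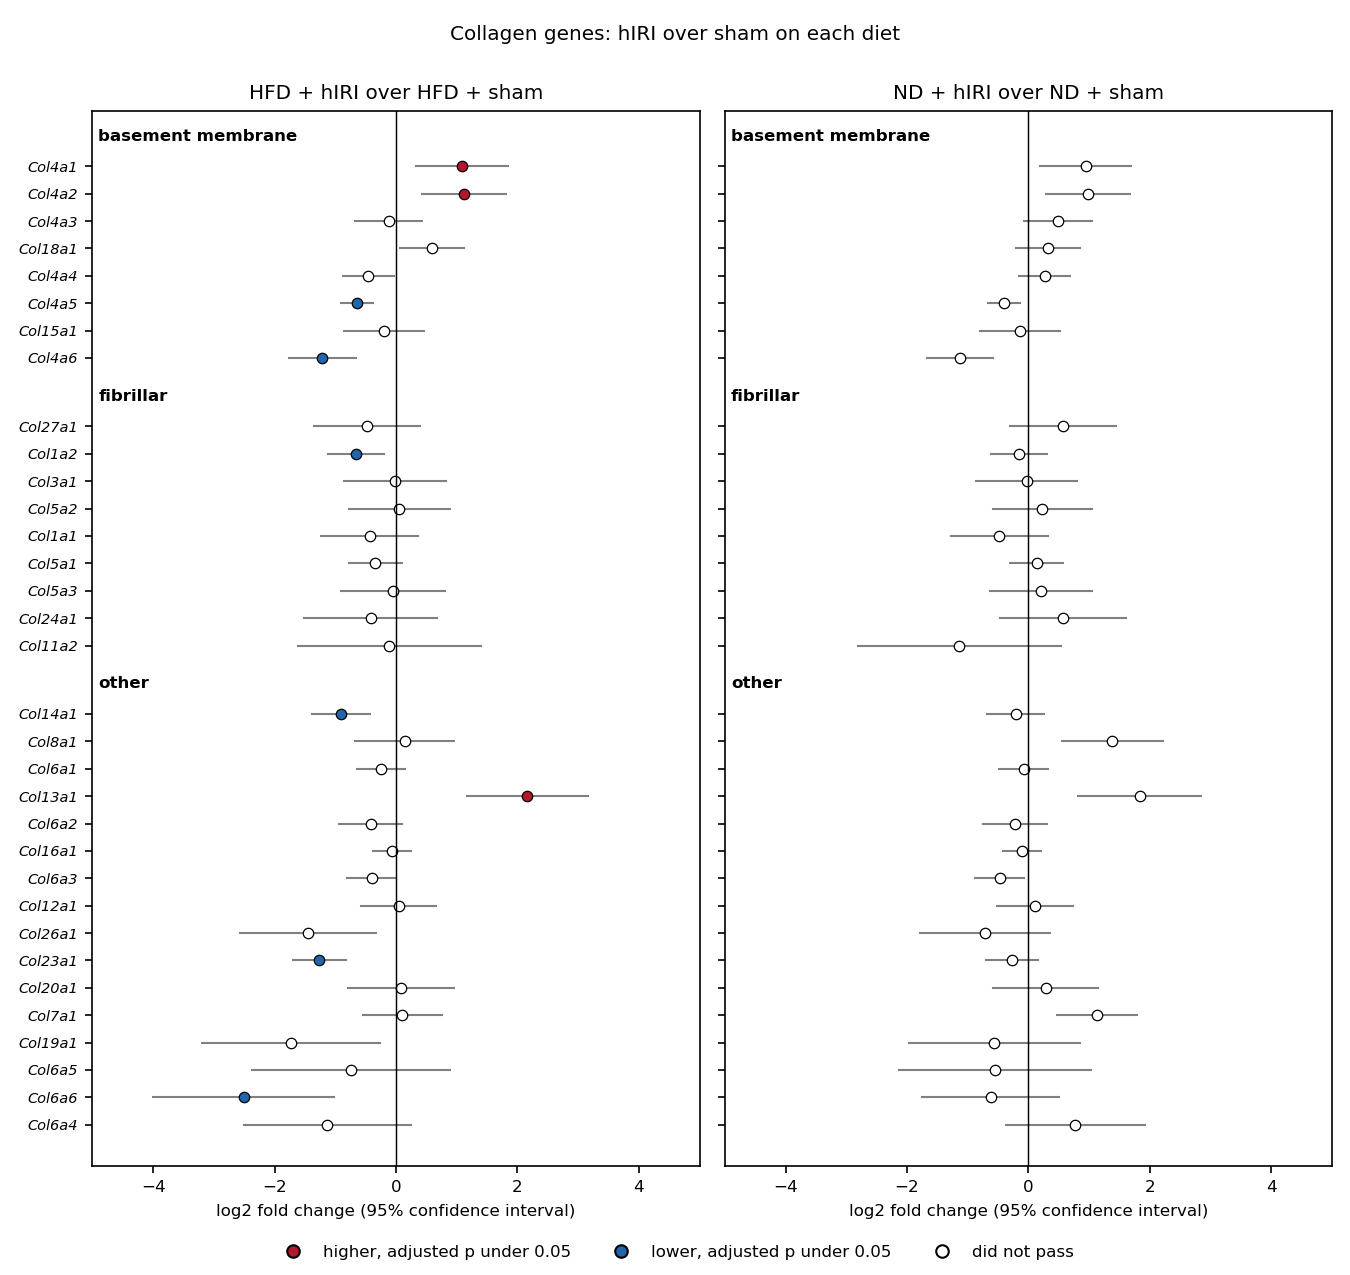
Log2 fold change with its 95% interval for each of the 33 collagen genes, HFD + hIRI over HFD + sham on the left and ND + hIRI over ND + sham on the right. Filled red or blue points passed at an adjusted p of 0.05 (9 on the left, 0 on the right), and Col13a1 is at 2.17 on the left and 1.83 on the right.

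The difference between the diets in the response to hIRI was tested directly as an interaction, and 0 of the 33 collagen genes passed, beside 0.0142% of all genes. DESeq2, the likelihood ratio test and limma voom also called 0. At an unadjusted p under 0.05 there were 6 collagen genes, each with a negative interaction, beside 816 positive and 613 negative among all genes. Among the 6 was Col23a1, with an interaction of -0.99 and an adjusted p of 0.486. For Col4a1 the interaction was 0.15 with a 95% interval of -0.91 to 1.20, and for Col4a2 it was 0.15 with an interval of -0.82 to 1.12. For Col4a6 it was -0.09 (-0.85 to 0.68) and for Col13a1 0.33 (-1.06 to 1.72). The intervals are wide, so that the 9 calls on one diet and 0 on the other in the plot of fold changes do not show a difference between diets.

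Col13a1 and Col23a1, both transmembrane collagens whose outer parts can be shed, moved in opposite directions. Col13a1 (chromosome 10 from 61838234 to 61979108, minus strand), known from the neuromuscular junction, had 40.7, 19.4 and 18.0 CPM in HFD + hIRI kidneys, against 6.20, 5.96 and 5.20 CPM in HFD + sham kidneys. It had 8.68, 6.92 and 13.6 CPM in ND + hIRI kidneys, against 2.40, 4.60 and 1.20 CPM in ND + sham kidneys. The groups did not overlap on either diet, and the 3 HFD + hIRI kidneys were the highest of the 12. Its log2 fold change over both diets was 2.0 (SE 0.32, adjusted p = 0.0070), the largest rise among the collagen genes. Col23a1 (chromosome 11 from 51289920 to 51583925, plus strand) had 2.38, 1.53 and 1.66 CPM in HFD + hIRI kidneys, against 4.89, 4.37 and 4.05 CPM in HFD + sham kidneys. It had 3.84, 3.09 and 3.60 CPM in ND + hIRI kidneys, against 4.32, 4.21 and 4.20 CPM in ND + sham kidneys. All 6 hIRI kidneys were below the 6 sham kidneys, with those of HFD + hIRI the lowest. Over both diets the log2 fold change was -0.77 (SE 0.14, adjusted p = 0.0089). Both calls stood in each of the 12 fits without 1 library and with the run of library numbers as a covariate.

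**Figure D4:**
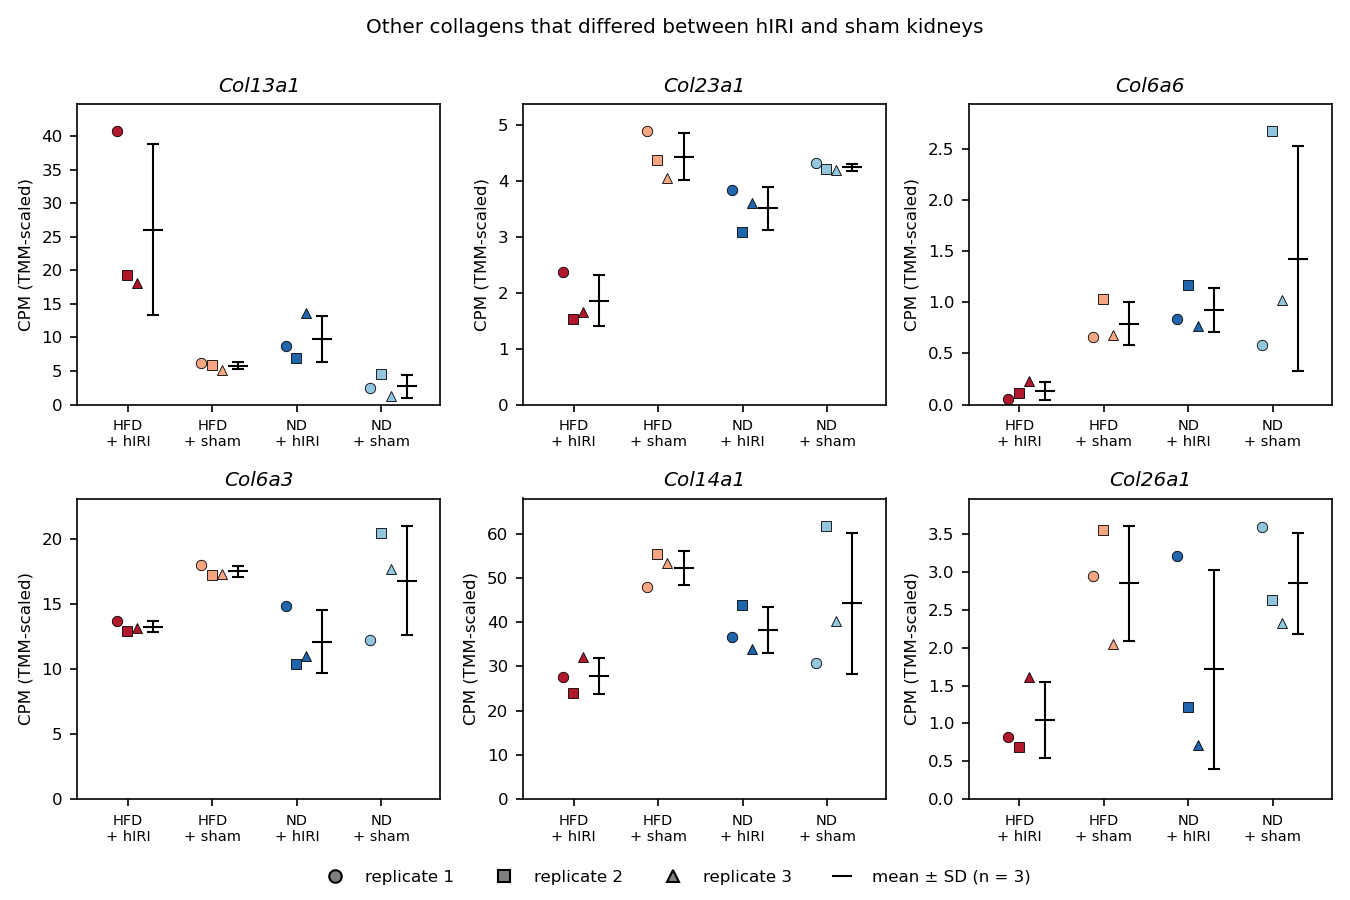
CPM of the 6 collagen genes of other types that passed for hIRI over sham with the diets averaged, in each library (points, shape by replicate) with the group mean and SD (bars, n = 3). Col13a1 is highest in the HFD + hIRI libraries at 18.0 to 40.7 CPM, and Col23a1 is lowest there at 1.53 to 2.38 CPM.

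The remaining 4 of the other types that passed over both diets were lower in hIRI kidneys and rested on fewer libraries. Col14a1 had 27.6, 24.0 and 32.0 CPM in HFD + hIRI kidneys, against 47.9, 55.3 and 53.3 CPM in HFD + sham kidneys. It had 36.7, 43.9 and 34.0 CPM in ND + hIRI and 30.8, 61.7 and 40.2 CPM in ND + sham kidneys, so that the groups were apart on the high-fat diet and overlapped on the control diet. Its log2 fold change over both diets was -0.56 (SE 0.15, adjusted p = 0.0276). Col6a6, a type VI chain with few reads, had 0.0516, 0.115 and 0.231 CPM in HFD + hIRI and 0.656, 1.03 and 0.682 CPM in HFD + sham kidneys. It had 0.832, 1.17 and 0.768 CPM in ND + hIRI and 0.582, 2.67 and 1.02 CPM in ND + sham kidneys. Only the high-fat groups were apart, and over both diets the log2 fold change was -1.57 (SE 0.43, adjusted p = 0.0269). The calls of Col14a1 and Col6a6 ended without HFD + hIRI replicate 2, HFD + sham replicate 2, HFD + sham replicate 3 or ND + hIRI replicate 3, with log2 fold changes over the 12 such fits of -0.66 to -0.40 and -1.86 to -1.16.

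Col6a3, the long chain of type VI filaments, had 13.7, 12.9 and 13.1 CPM in HFD + hIRI kidneys, against 18.0, 17.2 and 17.3 CPM in HFD + sham kidneys. It had 14.9, 10.4 and 11.0 CPM in ND + hIRI and 12.2, 20.5 and 17.7 CPM in ND + sham kidneys. The high-fat groups were apart, the control-diet groups overlapped, and the log2 fold change over both diets was -0.44 (SE 0.13, adjusted p = 0.0358). Col26a1 had 0.826, 0.689 and 1.61 CPM in HFD + hIRI kidneys, against 2.95, 3.56 and 2.04 CPM in HFD + sham kidneys. It had 3.21, 1.22 and 0.720 CPM in ND + hIRI and 3.60, 2.63 and 2.32 CPM in ND + sham kidneys, where replicate 1 of ND + hIRI lay within the sham range. The log2 fold change of Col26a1 was -1.08 (SE 0.35, adjusted p = 0.0465). The Col6a3 call stood in 4 and the Col26a1 call in 2 of the 12 fits without 1 library, with log2 fold changes of -0.53 to -0.35 and -1.50 to -0.90. Both calls also ended with the replicate block and with the run of library numbers as a covariate.

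The summed markers of papilla and urothelium, tissues at the tip of the kidney and its outflow, were lower in hIRI kidneys on both diets. They were 19.0 to 33.3 CPM in HFD + hIRI and 36.1 to 40.0 CPM in HFD + sham kidneys, and 11.1 to 25.5 CPM in ND + hIRI and 44.1 to 44.8 CPM in ND + sham kidneys. Of the 8 genes on that list 4 fell over both diets, namely Psca, Upk3a, Upk1a and Trp63, beside 10.9% of all genes. The summed markers of fibroblasts and pericytes, which make most interstitial collagen, overlapped on both diets, at 594 to 676 CPM in HFD + hIRI and 597 to 699 CPM in HFD + sham, and 552 to 630 CPM in ND + hIRI and 438 to 668 CPM in ND + sham kidneys. Of 11 measured genes on that list Pdgfrb rose and Lum and Fbln1 fell, beside 23.7% of all genes in either direction. Endothelial markers were 562 to 697 CPM in HFD + hIRI and 588 to 741 CPM in HFD + sham, and 569 to 668 CPM in ND + hIRI and 464 to 617 CPM in ND + sham kidneys. Adrenal markers, of which 3 of 10 were measured (Star, Akr1b7 and Mc2r), moved with hIRI without overlap on both diets. Their sum was 29.2 to 70.2 CPM in HFD + hIRI and 5.06 to 6.33 CPM in HFD + sham kidneys, and 5.35 to 17.3 CPM in ND + hIRI and 3.38 to 3.56 CPM in ND + sham kidneys, most of it from Akr1b7. The part of these cell types in the differences of the collagen genes was not tested.

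Of the interstitial chains of types I and III, Col1a2 passed on the high-fat diet and 0 passed with the diets averaged. Among all 9 fibrillar chains 8 had a negative log2 fold change for HFD + hIRI over HFD + sham (median -0.34, against -0.01 for all genes) and 4 for ND + hIRI over ND + sham (median 0.14, against 0.00 for all genes). Col1a2, a chain of type I collagen (chromosome 6 from 4505697 to 4541543, plus strand), had 27.1, 32.8 and 41.0 CPM in HFD + hIRI kidneys, against 45.8, 57.8 and 55.6 CPM in HFD + sham kidneys. It had 42.5, 44.9 and 41.3 CPM in ND + hIRI and 36.5, 65.5 and 41.9 CPM in ND + sham kidneys. The high-fat groups did not overlap and the control-diet groups did, and over both diets the log2 fold change was -0.41 (SE 0.15, adjusted p = 0.0648). Col1a1, its partner, had 5.27, 11.4 and 11.9 CPM in HFD + hIRI and 12.3, 14.4 and 12.2 CPM in HFD + sham kidneys. It had 11.2, 9.59 and 14.9 CPM in ND + hIRI and 9.93, 26.1 and 13.7 CPM in ND + sham kidneys, and the log2 fold change over both diets was -0.46 (95% interval -1.02 to 0.11). Type III collagen, the fine fiber of soft organs, is made of the Col3a1 chain alone. Col3a1 had 23.4, 24.6 and 23.7 CPM in HFD + hIRI and 23.2, 25.2 and 24.4 CPM in HFD + sham kidneys. It had 13.3, 45.1 and 36.9 CPM in ND + hIRI and 20.1, 46.9 and 29.9 CPM in ND + sham kidneys, and its log2 fold change over both diets was -0.02 (95% interval -0.61 to 0.57).

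**Figure D5:**
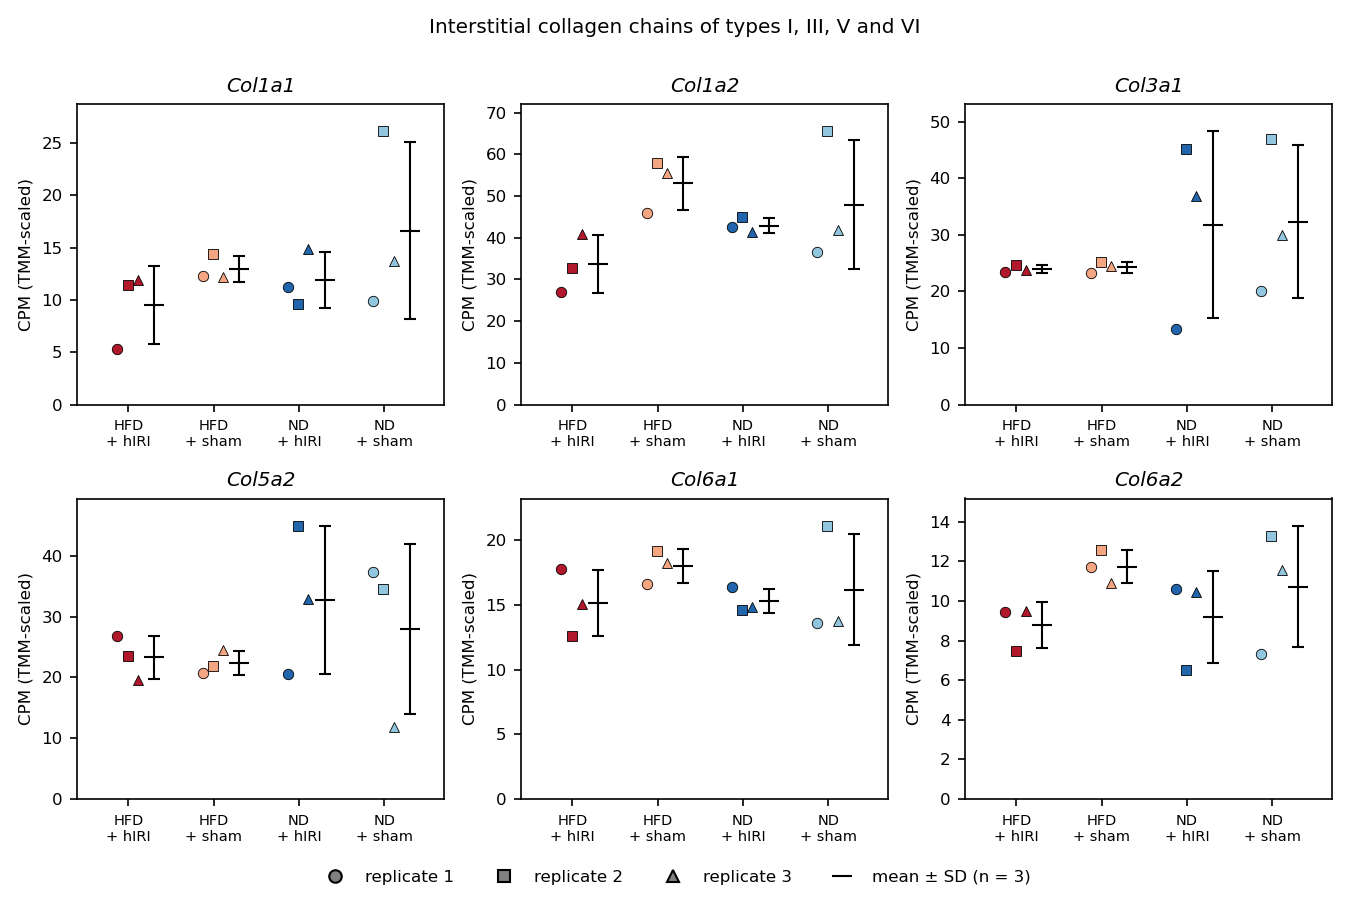
CPM of 6 interstitial collagen chains of types I, III, V and VI in each library (points, shape by replicate) with the group mean and SD (bars, n = 3). Replicate 2 of ND + sham is high for Col1a1 (26.1 CPM), Col1a2 (65.5 CPM) and Col3a1 (46.9 CPM), and the spread of Col3a1 is far wider on the control diet than on the high-fat diet.

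The plots of interstitial chains show that ND + sham replicate 2 was the highest of all libraries for Col1a1, Col1a2, Col3a1, Col6a1 and Col6a2. That library also had the highest summed adipocyte markers, 774 CPM, against 209 CPM at the low end of ND + sham. Adipocyte markers were 365 to 398 CPM in HFD + hIRI, 305 to 340 CPM for HFD + sham, then 344 to 439 for ND + hIRI kidneys, and their part was not tested. The type VI chains Col6a1 and Col6a2 had log2 fold changes over both diets of -0.17 (95% interval -0.45 to 0.12) and -0.32 (-0.69 to 0.05). Col27a1 had 72.5, 190 and 111 CPM in HFD + hIRI and 171, 168 and 182 CPM in HFD + sham kidneys. It had 203, 99.1 and 199 CPM in ND + hIRI and 112, 63.1 and 163 CPM in ND + sham kidneys, and the log2 fold change over both diets was 0.05 (95% interval -0.57 to 0.66). Col8a1 had 35.6, 44.9 and 19.9 CPM in HFD + hIRI and 25.6, 31.9 and 33.6 CPM in HFD + sham kidneys, with overlap. It had 28.5, 41.2 and 67.6 CPM in ND + hIRI and 24.1, 17.7 and 10.8 CPM in ND + sham kidneys, without overlap, and its adjusted p on the control diet was 0.173 at a log2 fold change of 1.38. The remaining type VI chains Col6a4 and Col6a5 had group means of 0.167 to 0.697 CPM and 1.00 to 1.96 CPM and did not pass in any comparison.

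With the settings used, no collagen gene passed the threshold in a comparison of the 2 diets. Of the 33 genes 0 passed for HFD + hIRI over ND + hIRI (1.35% of all genes passed), 0 for HFD + sham over ND + sham (0.0142% of all genes) and 0 for HFD over ND averaged over both surgeries (2.75% of all genes). For HFD + hIRI over ND + hIRI 7 collagen genes had an unadjusted p under 0.05, beside 3828 of the 14091 genes, and DESeq2 called 5 (12.6% of all genes), the likelihood ratio test 4 (7.82%) and limma voom 0 (1.01%). For HFD + sham over ND + sham 1 had an unadjusted p under 0.05, beside 1240 of all genes, and those tools called 0. For HFD over ND averaged over surgeries 6 had an unadjusted p under 0.05, beside 3341 of all genes, and DESeq2 called 3 (10.3% of all genes), the likelihood ratio test 2 (7.43%) and limma voom 0 (2.68%). Among the hIRI kidneys 6969 of all genes had a lower and 7122 a higher fitted level in HFD + hIRI. The median log2 fold change of all genes was 0.00. Of the collagen genes 24 were lower and 9 higher there, with a median of -0.34. The gene nearest to the threshold was Col23a1, with a mean of 1.86 ± 0.455 CPM in HFD + hIRI, against 3.51 ± 0.386 CPM in ND + hIRI kidneys (SD, n = 3 each) and a log2 fold change of -0.93 (adjusted p = 0.0523). Its libraries did not overlap between the diets, and without HFD + hIRI replicate 1 or 3 it passed (log2 fold changes of -1.14 and -0.86). Col6a6 averaged 0.132 ± 0.0907 CPM in HFD + hIRI, against 0.923 ± 0.216 CPM in ND + hIRI kidneys (log2 fold change -2.74, adjusted p = 0.068), and Col13a1 26.0 ± 12.7 CPM in HFD + hIRI, against 9.73 ± 3.45 CPM in ND + hIRI kidneys (1.42, adjusted p = 0.093). Col13a1 was also higher in each HFD + sham than in each ND + sham library, with a log2 fold change of 1.08 and an adjusted p of 0.553. The comparisons of each diet and surgery share libraries, so their values are not independent of one another.

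Genes that act on collagen after it is made were read from the same test, by function, for hIRI over sham with the diets averaged. Of 19 measured genes for folding and modifying the chains, 1 rose (P4ha2) and 4 fell (P3h2, P3h1, Crtap and Colgalt2), a share near the 23.7% of all genes that passed in either direction. P3h2, which adds hydroxyl groups to prolines of type IV collagen in particular, had 52.1, 63.0 and 65.6 CPM in HFD + hIRI and 137, 158 and 132 CPM in HFD + sham kidneys. It had 138, 64.0 and 78.5 CPM in ND + hIRI and 142, 109 and 171 CPM in ND + sham kidneys, where replicate 1 of hIRI lay within the sham range. The log2 fold change of P3h2 was -0.92 (adjusted p = 0.0108), and the other 4 calls of the list stood in 4 or fewer of the 12 fits without 1 library. Of 19 genes for propeptide cleavage and cross-linking, 2 rose (Loxl1 and Tgm2) and 3 fell (Lum, Fmod and Tll1), again near that background. Loxl1, a lysyl oxidase that cross-links matrix fibers, had 44.3, 34.7 and 42.6 CPM in HFD + hIRI and 23.1, 19.3 and 19.9 CPM in HFD + sham kidneys. It had 23.3, 39.3 and 45.7 CPM in ND + hIRI and 13.0, 19.5 and 10.2 CPM in ND + sham kidneys, higher without overlap on both diets, with a log2 fold change of 1.15 (adjusted p = 0.0070). The calls of Loxl1 and Lum stood in each of the 12 fits without 1 library, and those of Tgm2, Fmod and Tll1 in 9, 5 and 3 of them.

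Of 18 measured genes for collagen breakdown and its control, 2 rose (Timp1 and Mmp19) and 4 fell (Mmp11, Mmp15, Timp2 and Reck), beside 12.9% of all genes higher and 10.9% lower. Timp1, an inhibitor of matrix metalloproteinases, had 18.6, 9.79 and 5.03 CPM in HFD + hIRI and 0.820, 0.514 and 1.15 CPM in HFD + sham kidneys. It had 1.19, 8.61 and 4.80 CPM in ND + hIRI and 0.480, 1.19 and 0.751 CPM in ND + sham kidneys, so that replicate 1 of ND + hIRI was level with the highest sham library. The log2 fold change was 3.16 (adjusted p = 0.0066), with Mmp11 at -1.09 and Mmp15 at -0.71, and these 3 calls stood in each of the 12 fits without 1 library. Those of Mmp19, Timp2 and Reck stood in 5, 3 and 3. Of 7 measured collagen receptors Ddr1 rose (log2 fold change 0.58, adjusted p = 0.0102) and Lair1 fell (-0.96), a call that ended without ND + hIRI replicate 3, ND + sham replicate 1 or ND + sham replicate 3 (-1.09 to -0.67 over the 12 fits). Ddr1, a receptor tyrosine kinase that collagen switches on, had 252, 230 and 159 CPM in HFD + hIRI and 128, 144 and 124 CPM in HFD + sham kidneys, and 152, 179 and 197 CPM in ND + hIRI and 120, 131 and 131 CPM in ND + sham kidneys.

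Of 22 other basement membrane genes, 7 fell (Frem1, Nid2, Fras1, Npnt, Lamb3, Agrn and Frem2), beside 10.9% of all genes. Frem1 and Fras1 belong to the complex that anchors epithelium to the tissue below, and nidogen 2 (Nid2) links laminin to type IV collagen. Their log2 fold changes were -1.15 for Frem1, -0.59 for Fras1 and -0.52 for Nid2, each kept in the 12 fits without 1 library, as were the calls of Npnt and Lamb3, while those of Agrn and Frem2 stood in 8 and 6. Of 23 genes of TGF-beta signaling and matrix gene control 10 rose and 1 fell, beside 23.7% of all genes in either direction. That list was chosen with results of these libraries known, so its count is no independent evidence. The receptor gene Tgfbr1 had 253, 251 and 181 CPM in HFD + hIRI and 111, 100 and 113 CPM in HFD + sham kidneys, and 108, 106 and 163 CPM in ND + hIRI and 88.6, 89.6 and 81.0 CPM in ND + sham kidneys, without overlap on either diet. Tgfbr1 rose by 0.81 and Skil, an inhibitor in the pathway, by 0.78 on the log2 scale, and Ltbp1, which stores latent TGF-beta in the matrix, was at -0.63. On the control diet alone 0 genes of these 6 lists passed, beside 0% of all genes. Between HFD + hIRI and ND + hIRI kidneys 3 did, beside 1.35% of all genes. Ppib and Tgfbr1 were higher and Fras1 was lower in HFD + hIRI. These calls stood in 1 (Ppib), 2 (Tgfbr1) and 5 (Fras1) of the 12 fits without 1 library.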

How the data were processed

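Total RNA of 12 mouse kidneys was sequenced as paired-end Illumina mRNA libraries. The authors deposited 1 table of raw read counts per gene, for which the submitters' processing notes name FastQC 0.11.5, STAR 2.7.10a, featureCounts (Subread 2.0.3), edgeR 3.42.4 and the build mm10. For annotation, strand setting and low-count filter the entry is: not given in the sources used here. Exon length per gene, another value deposited by the authors, was used for CPM per kilobase, the only scale on which levels of different genes were compared. The deposited log2 CPM and the authors' own fold changes and p-values were not used. Groups came from the sample labels, and replicates are numbered as separate samples; 1 batch tag covers all 12. P-values set a difference of group means against the spread between libraries of the same group.

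Counts were fitted in R 4.3.3 with edgeR 4.0.16 (TMM scaling, filterByExpr, which removed 0 genes, robust quasi-likelihood) in 1 model with a mean per group over all 12 libraries. The 7 contrasts were read at a Benjamini-Hochberg adjusted p of 0.05 over 14091 genes. The test was also run on simulated counts, which held no outlying library and no difference between the runs of library numbers. Depth was 20874584 to 29451344 counts, and genes with few reads are the least precise. Alternatives were other scalings, filters, DESeq2 1.42.0, limma voom (3.58.1), the likelihood ratio test, a replicate block, the run of library numbers (split at 410), and each library left out. The members and gene lists were chosen with earlier results of these data known. Named were members that passed in any comparison, the 3 with the highest level per kilobase in each class, all measured chains of types I, III, IV and VI, and in each list those with the lowest p, plus genes said to be chosen after their values were seen. Promoters were taken from RefSeq on GRCm38.p6. Some genes of the lists are not reported here.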

Additional observations from a re-analysis of the deposited data

How the results depend on the processing

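The number of collagen genes called for HFD + hIRI over ND + hIRI was 0 with the settings used, 1 with upper quartile scaling, 1 with library totals alone, 1 with at least 10 counts in every library, 5 with DESeq2 and 4 with the likelihood ratio test. For HFD + hIRI over HFD + sham it was 9, and it was 0 with the run of library numbers as a covariate, 0 in the 8 libraries of the higher run alone and 5 without replicate 1 of both hIRI groups, the last 2 settings having been chosen after seeing the data. For ND + hIRI over ND + sham it was 0, and it was 4 with DESeq2, 4 with the likelihood ratio test and 10 without replicate 1 of both hIRI groups. For HFD over ND averaged over surgeries it was 0, and it was 1 with library totals alone, 3 with DESeq2 and 2 with the likelihood ratio test. For hIRI over sham averaged over diets it was 10, and it was 0 in the 8 libraries of the higher run and 15 with DESeq2. With the settings used, 1.35%, 19.9%, 0%, 2.75% and 23.7% of all genes passed in these comparisons, in the order given. Calls among all genes also changed with the setting, as given above for several settings. The changes in these counts are therefore not a result about collagens as a group, and their cause was not tested. Leaving out 1 library gave 0 to 5 calls for HFD + hIRI over ND + hIRI, 0 to 0 for HFD + sham over ND + sham, 0 to 12 for HFD + hIRI over HFD + sham, 0 to 3 for ND + hIRI over ND + sham, 0 to 3 for HFD over ND, 6 to 14 for hIRI over sham and 0 to 0 for the interaction. All-gene shares of the fits without 1 library are not given here, so these ranges describe the stability of the calls only. No fold change of a called collagen gene changed sign in any of the settings of this section.

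The replicate numbers were not treated as pairs, since the labels do not say that they are. Of the 18 pairs of libraries with the same number, 6 had deviations correlated above 0.1 (range -0.42 to 0.21). The 3 such pairs of ND + hIRI with ND + sham were at 0.17, 0.20 and 0.20, and the block left that comparison at 0 calls. These correlations were not set against those of differently numbered libraries, so they do not decide whether the libraries were paired. With the replicate number as a block 8 collagen genes passed for HFD + hIRI over HFD + sham, 8 for hIRI over sham, 1 for HFD over ND and 0 in the other 4 comparisons. The depth limits Col6a4, Col6a5, Col6a6, Col11a2 and Col19a1 most, each of which had a library with 1 or 2 reads.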
